A study of Mus musculus with 9 samples.

Results

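The genes described here are 10 that build and mark lymphoid tissue, namely the chemokines Ccl21a, Ccl19 and Cxcl13, their receptors Ccr7 and Cxcr5, the lymphotoxins Lta and Ltb, the homing ligand Madcam1 and the lymphatic vessel genes Lyve1 and Prox1. They were selected by their symbols, and with earlier results of these data known, from the 32671 genes of the deposited gene table, and all 10 passed the filter on low counts that left 20794 genes for testing. RNA was from whole lung of wild-type C57BL/6 mice at day 21, in 3 groups of 3 libraries. Saline was given to the control mice and bleomycin, which damages DNA and is used to cause lung fibrosis, to the bleomycin group. The remaining group, LNP, was challenged with bleomycin too and was treated with inhalable lipid nanoparticles labelled mCas9/gSting@DOPS. Cas9 is an enzyme that a guide RNA directs to the DNA it cuts. Particles lacking the guide were not analysed here, so the guide and the particle cannot be told apart as sources of a difference.

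In lymph nodes and in the lymphoid clusters that form in inflamed lung, CCL21 and CCL19 draw naive T cells and mature dendritic cells through the receptor CCR7, and CXCL13 draws B cells and follicular helper T cells through CXCR5. Lymphocytes make lymphotoxin alpha and beta, which act on the lymphotoxin beta receptor of stromal cells. That receptor signals through the noncanonical NF-kB pathway, which switches on the stromal chemokines and adhesion molecules such as MAdCAM-1, and CXCL13 in turn raises lymphotoxin on B cells. LYVE-1 and PROX1 mark lymphatic endothelium, the vessels through which CCR7-bearing cells leave the lung.

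The gene counts of a library summed to between 56047830 and 69404903. Whether the 3 samples of a group came from separate animals is not in the labels, and p-values therefore measure only the spread between these samples, which may be technical. Of the 9 libraries, LNP replicate 3 stood apart. Its 13 skeletal muscle and squamous epithelium markers summed to 9181 CPM (counts scaled to the library size), against 10.2 to 54.6 CPM elsewhere. The lowest correlation between LNP libraries over genes was 0.933, and between control or bleomycin libraries it was at least 0.97. Sting1, which the guide targets by its name, ranged from 18.4 to 23.9 CPM in the control group, from 40.5 to 53.8 CPM with bleomycin and from 44.3 to 62 CPM with the particles. The last 2 groups overlapped, so its RNA does not check the LNP label. The 10 lung epithelium markers had counts in every library, and their sum was 45192.5 to 57454.6 CPM in the control group, 16964.6 to 18782.6 CPM with bleomycin and 14011 to 33744.2 CPM with the particles, lowest in LNP replicate 3. After bleomycin 6 of the 10 were called lower than control (called is defined below), beside 18.5% of all genes. For 8 of the 10 the bleomycin libraries were all below the control libraries, where 55.5% of all genes did not overlap in either direction. The marker sum rests mostly on Scgb1a1 and Sftpc, with control means of 21165.3 and 16860.9 CPM. For Ager (2744 CPM in control, 3206.8 CPM with bleomycin) and Cldn18 (691.5 and 671.7 CPM) the groups overlapped. Whole-lung RNA cannot tell fewer cells of a type from less RNA per cell.

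Called means a p under 0.05 in edgeR's quasi-likelihood F test after Benjamini-Hochberg adjustment over all genes tested, with no minimum fold. Counts of genes that rose or fell are counts of genes called higher or lower. Since the 10 genes were chosen with these results known, their calls are given as descriptions and nothing is read from them. Madcam1 also had no count in control and passed the filter on low counts only through bleomycin and LNP libraries, which favours calls over control. After bleomycin, Cxcl13 and Madcam1 were called higher than in control, beside 15.2% of all genes tested. Ccl19, Ccr7, Cxcr5 and Ltb were called lower, beside 18.5% of all genes. The bleomycin and control libraries did not overlap for 7 of the 10 genes, beside 55.5% of all genes. In LNP lung against bleomycin lung, Ccl21a, Ccl19, Ccr7, Cxcr5 and Ltb were called higher, beside 4.28% of all genes. Lyve1 was called lower, beside 1.87% of all genes, and the groups did not overlap for 8 of the 10, beside 29.9% of all genes. Against control, LNP lung had Ccl21a, Cxcl13 and Madcam1 called higher, beside 4.95% of all genes. In that comparison edgeR called 0 of the 10 lower, beside 3.08% of all genes, with 1 (Lyve1) at an unadjusted p under 0.05 and 1 called by DESeq2. The groups did not overlap for 5 of the 10, beside 28.8% of all genes.

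The median log2 fold change of the 10 genes was -0.32 between bleomycin and control, 1.57 between LNP and bleomycin and 0.44 between LNP and control, first group minus second. Over all genes tested the same medians were -0.05, 0.04 and 0.00. The 3 comparisons share libraries and are not independent of each other. Leaving out bleomycin replicate 2 left 2 of the 10 called for LNP against bleomycin (Cxcr5 and Ltb), and leaving out LNP replicate 3 left 7. The same omissions moved the share of all genes called higher to 0.391% and to 14%, and the share called lower to 0.0837% and to 10.7%.

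**Figure D1:**
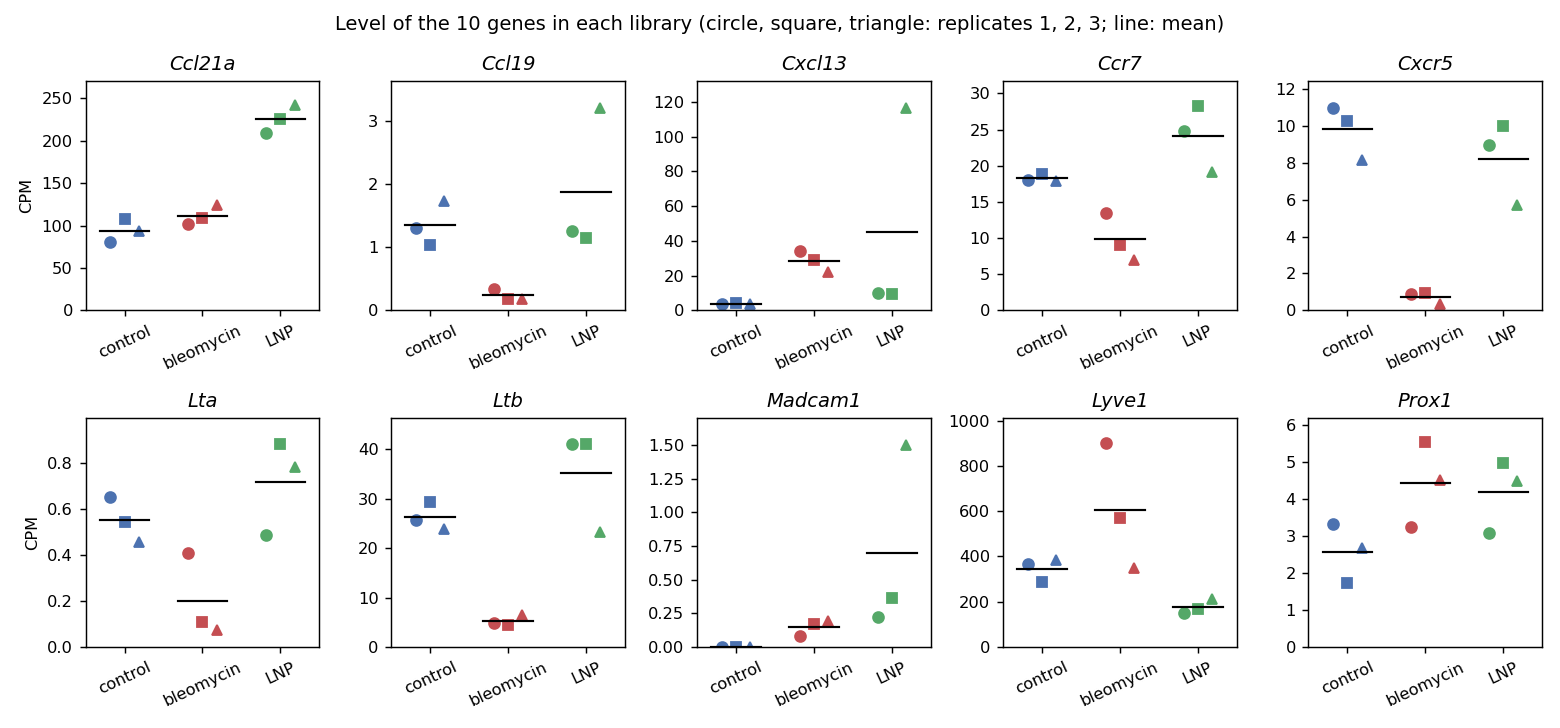
CPM (vertical axis, linear and from 0, own scale for each gene) of the 10 genes in the 9 libraries by group, with circles, squares and triangles for replicates 1, 2 and 3 and a line at the group mean. Ltb and Cxcr5 sit low in the 3 bleomycin libraries, Ccl21a sits above 200 CPM in the 3 LNP libraries, and the Cxcl13 and Madcam1 means of LNP lung rest on replicate 3 at 116.6 and 1.5 CPM.

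**Figure D2:**
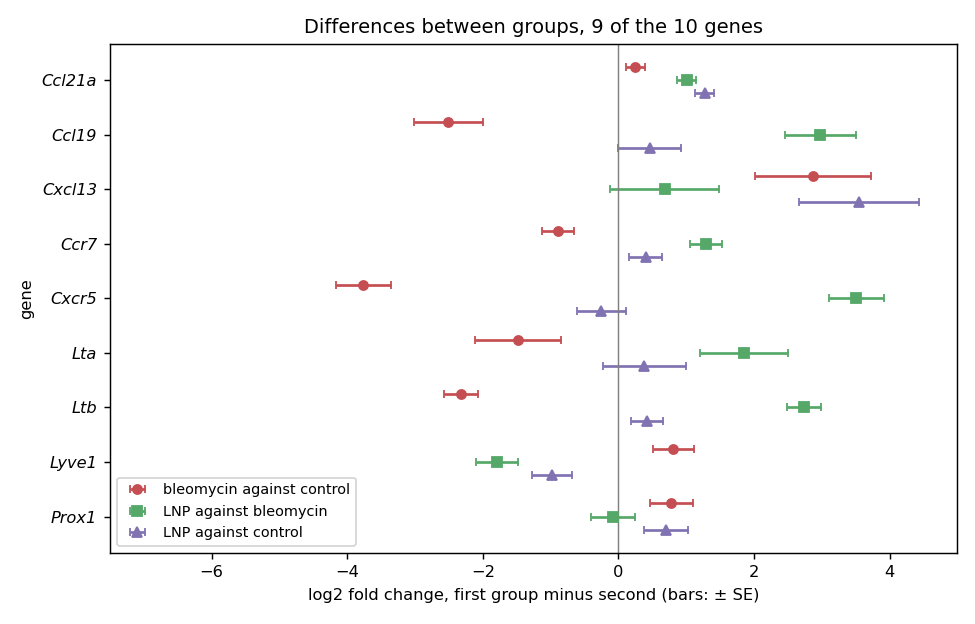
Fitted log2 fold changes (horizontal axis, first group minus second, bars ± SE) of 9 of the 10 genes in the 3 comparisons. Madcam1 is left out because it had no count in control. Ccl19, Ccr7, Cxcr5, Lta and Ltb lie left of 0 for bleomycin against control and right of 0 for LNP against bleomycin.

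Ccl21a encodes 1 form of CCL21, the CCR7 ligand made mainly by lymphoid stroma and lymphatic endothelium, whose sources can differ between the gene copies described below. Ccl21a was the most abundant of the 3 chemokines. Ccl21a (ENSMUSG00000094686) is on the minus strand of chromosome 4, from 42772860 to 42773993. These and the following gene positions are those of the deposited table (genome build: not given in the sources used here). Control libraries held 80.5, 107.7 and 93.2 CPM of Ccl21a, where the bleomycin libraries had 102.1, 108.6 and 124.7 CPM and the LNP libraries 209.5, 225.1 and 242.3 CPM. The LNP libraries were all above the other 6, and control and bleomycin overlapped. LNP lung was 2.02-fold above bleomycin lung (log2 fold change 1.01 ± 0.14) and 2.41-fold above control (1.27 ± 0.14), and bleomycin lung differed from control by 0.25 ± 0.14 on the log2 scale. Without LNP replicate 3 the difference from bleomycin was 0.96 ± 0.14. Without bleomycin replicate 2 it was 0.99 and no longer called.

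Ccl21a has near-identical copies on the same chromosome, so how reads were divided among them is uncertain. The coding sequences of Ccl21b, Ccl21d, Ccl21e and Ccl21f in the GENCODE transcripts were identical to each other over 402 bases. Each differed from Ccl21a at 2 bases, T84A and C194T, counted from 1 at the first coding base with the Ccl21a base first, which left 99.5% identity. Only reads over those bases, or over other differences outside the coding part, can tell Ccl21a from its copies. The 25 bases around each difference are shown because they are the only coding stretches that separate Ccl21a from the rest, with the differing base in capitals.
Ccl21a, coding bases 72 to 96: tgatggagggggTcaggactgctgc
Ccl21b, coding bases 72 to 96: tgatggagggggAcaggactgctgc
Ccl21a, coding bases 182 to 206: caatcctgttctCaccccggaagca
Ccl21b, coding bases 182 to 206: caatcctgttctTaccccggaagca

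The sum over the 5 copies does not depend on how reads were divided among them. Control libraries reached 143.3, 180.4 and 164.8 CPM in this sum, bleomycin libraries 190.4, 196.1 and 220.4 CPM, and LNP libraries 371, 403.5 and 364.4 CPM. The groups did not overlap in that sum. Ccl21a took 53.6% to 59.7% of the summed counts in 8 libraries and 66.5% in LNP replicate 3, where Ccl21d was at 14.9 CPM against 35.7 and 43.0 CPM in the other LNP libraries. Of the 4 copies, which were not among the chosen genes, Ccl21b, Ccl21e and Ccl21f were called higher in LNP lung than in control (log2 fold changes 1.02, 1.29 and 1.28, adjusted p = 0.0055, 0.004 and 0.0091). Ccl21d did not pass, at 1.03 ± 0.37. Against bleomycin, Ccl21e was called higher (0.89 ± 0.18, adjusted p = 0.025), and the differences of Ccl21b, Ccl21d and Ccl21f were 0.56, 0.77 and 0.86.

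**Figure D3:**
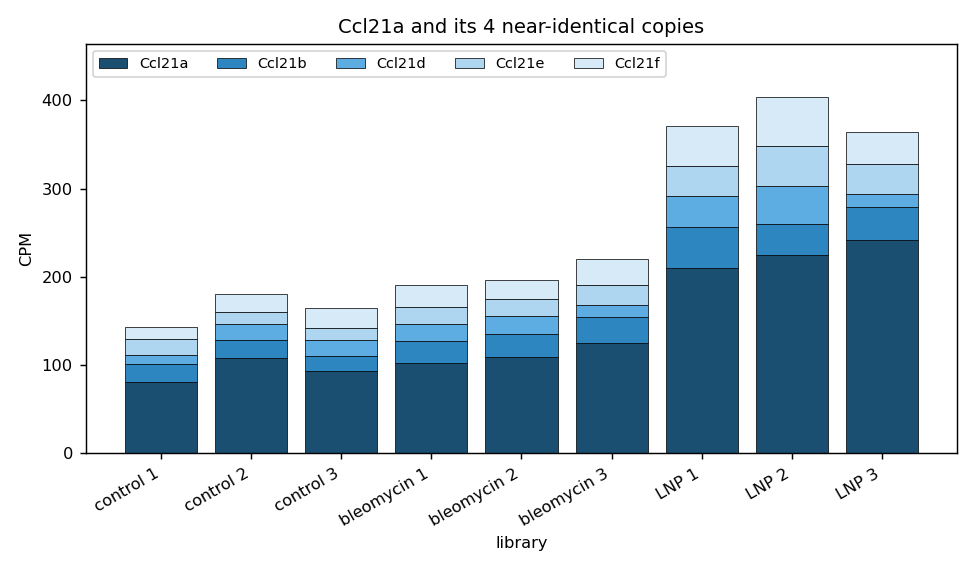
CPM (vertical axis) of Ccl21a and its 4 copies, stacked, in each of the 9 libraries. The control stacks reach 143.3 to 180.4 CPM, the bleomycin stacks 190.4 to 220.4 CPM and the LNP stacks 364.4 to 403.5 CPM, with Ccl21a as the largest part of each.

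Ccl19 encodes the second CCR7 ligand, a product of reticular stroma and mature dendritic cells, and was present at a small fraction of the Ccl21a level. Ccl19 is close to Ccl21a on the same strand of chromosome 4, from 42754525 to 42756577 (ENSMUSG00000071005). Control libraries gave 1.31, 1.04 and 1.73 CPM of Ccl19, where the bleomycin libraries had 0.344, 0.186 and 0.181 CPM and the LNP libraries 1.26, 1.15 and 3.22 CPM. All 3 bleomycin libraries were below the other 6, and the highest value was that of LNP replicate 3. The fitted log2 difference of bleomycin from control was -2.51 ± 0.51. That of LNP from bleomycin was 2.98 ± 0.52, which became 2.34 ± 0.42 without LNP replicate 3. LNP and control overlapped, and their difference of 0.46 ± 0.47 turned to -0.14 ± 0.40 without that library. Without bleomycin replicate 2 the LNP against bleomycin difference was 2.83 and no longer called. The main transcript, ENSMUST00000102957, held 85.9% of the Ccl19 counts in control and 85.5% in LNP, but 42.2% in bleomycin, where its counts were 7, 1 and 11.

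Cxcl13 encodes the CXCR5 ligand that draws B cells into follicles. Cxcl13 (ENSMUSG00000023078) is on the plus strand of chromosome 5, from 96104810 to 96108927. Cxcl13 stood at 3.54, 4.21 and 3.85 CPM in the control libraries, where the bleomycin libraries had 33.9, 29.2 and 21.9 CPM and the LNP libraries 9.98, 9.41 and 116.6 CPM. LNP replicates 1 and 2 lay between the control and the bleomycin libraries, and LNP replicate 3 lay above all others. Bleomycin lung was 7.33-fold above control (log2 fold change 2.87 ± 0.86), the opposite order to that of its receptor Cxcr5. LNP replicate 3 decides the LNP values. With it, LNP lung differed from bleomycin lung by 0.68 ± 0.80 and from control by 3.55 ± 0.88, and without it by -1.54 ± 0.20 and 1.36 ± 0.19, both then called. Without it the bleomycin against control difference was 2.91 ± 0.18. In the fit of all libraries that call was lost when control replicate 1, 2 or 3 (2.81, 2.94 and 2.87) or bleomycin replicate 1 or 2 (2.72 and 2.85) was left out. The LNP against control call was lost when any 1 control library (3.49, 3.61 and 3.54) or any 1 bleomycin library (3.55 each) was left out. Muscle and squamous markers moved with Cxcl13 in LNP replicate 3, at a sum of 9181 CPM against 32.2 and 13.6 CPM in LNP replicates 1 and 2, and their part in its level was not tested.

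Ccr7 encodes the receptor for CCL21 and CCL19 on naive and central memory T cells, B cells and mature dendritic cells. Ccr7 (ENSMUSG00000037944) is on the minus strand of chromosome 11, from 99035022 to 99045903. Control lung held 18.0, 18.8 and 17.9 CPM of Ccr7, where the bleomycin libraries had 13.5, 9.09 and 6.94 CPM and the LNP libraries 24.8, 28.3 and 19.2 CPM. The 3 groups did not overlap, and the LNP group came nearest to control in replicate 3. Bleomycin lung differed from control by -0.89 ± 0.24 (log2), and LNP lung from bleomycin lung by 1.29 ± 0.24 and from control by 0.40 ± 0.24. The call of the first was lost without control replicate 1 (-0.90), bleomycin replicate 2 (-0.84) or bleomycin replicate 3 (-0.69). The LNP against bleomycin call was lost without bleomycin replicate 2 (1.24), LNP replicate 1 (1.27) or LNP replicate 2 (1.16).

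Cxcr5 encodes the CXCL13 receptor of B cells and follicular helper T cells. Cxcr5 (ENSMUSG00000047880) is on the minus strand of chromosome 9, from 44423084 to 44473174. Cxcr5 stood at 11, 10.3 and 8.18 CPM in control libraries, where the bleomycin libraries had 0.885, 0.962 and 0.317 CPM and the LNP libraries 8.97, 10 and 5.7 CPM. Every bleomycin library was under 1 CPM, and the control and LNP libraries overlapped. Cxcr5 was 13.6-fold lower in bleomycin lung than in control (log2 fold change -3.76 ± 0.41) and 11.4-fold higher in LNP lung than in bleomycin lung (3.51 ± 0.41). LNP lung differed from control by -0.25 ± 0.36. Both calls were kept when any 1 of the 9 libraries was left out, with values from -4.03 to -3.41 and from 3.15 to 3.78.

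Ltb encodes lymphotoxin beta, the membrane anchor of the lymphotoxin heterotrimer. Ltb (ENSMUSG00000024399) is on the plus strand of chromosome 17, from 35413415 to 35415281, next to Tnf and Lta. Control libraries held 25.7, 29.3 and 23.8 CPM of Ltb, where the bleomycin libraries had 4.83, 4.41 and 6.51 CPM and the LNP libraries 41.1, 41.1 and 23.3 CPM. LNP replicates 1 and 2 were above every control library, and replicate 3 was just below them. Ltb was 5.00-fold lower in bleomycin lung than in control (log2 fold change -2.32 ± 0.25) and 6.70-fold higher in LNP lung than in bleomycin lung (2.74 ± 0.25), and both calls were kept when any 1 of the 9 libraries was left out. Its LNP against control difference was 0.42 ± 0.24, which rose to 0.69 and was called without LNP replicate 3. The transcript ENSMUST00000025262 held 85.1% of the Ltb counts over the 9 libraries.

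Lta encodes lymphotoxin alpha, the soluble partner that also forms a trimer of its own. Lta (ENSMUSG00000024402) is on the minus strand of chromosome 17, from 35422141 to 35424327. Its counts were low, with 40, 36 and 32 in the control libraries, 25, 7 and 5 in the bleomycin libraries and 35, 54 and 45 in the LNP libraries. In CPM these were 0.653, 0.545 and 0.458, then 0.410, 0.109 and 0.0756, then 0.486, 0.884 and 0.784. Every bleomycin library was below the other 6, and control and LNP overlapped. Bleomycin differed from control by -1.48 ± 0.64 (log2), LNP from bleomycin by 1.85 ± 0.65 and LNP from control by 0.38 ± 0.61, and none of these was called. Without bleomycin replicate 1, the highest of its group, the first became -2.56 and was called. The second became 2.94 without that library, and was 1.47 to 2.94 over the fits that left out 1 library, none of which called it.

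The promoter of Ltb is shown because noncanonical and classical NF-kB act through kappaB sites and every bleomycin library was below the other 6 for this gene. RefSeq promoter entries (GRCm38.p6, 250 bases before to 50 after the start) were matched for 7 of the 10 genes. The kappaB consensus, searched by its usual degenerate form on both strands, occurred in 4.51% of the 32851 promoters. It occurred in the promoters of Ltb and Madcam1 and in none of those of Ccl21a, Ccl19, Cxcl13, Lta and Prox1. In Ltb the match begins 87 bases before the start and reads GGGACTTTCC on the opposite strand. In Madcam1 there are 2 matches, 83 and 70 bases before the start, which read GGGGCTTTCC and GGGACTTTCC on the opposite strand. A match is a description of letters, not a site shown to be bound. The 150 bases before each start are given on the gene's strand with the matches in capitals.
Ltb, chr17:35194357-35194506, plus strand: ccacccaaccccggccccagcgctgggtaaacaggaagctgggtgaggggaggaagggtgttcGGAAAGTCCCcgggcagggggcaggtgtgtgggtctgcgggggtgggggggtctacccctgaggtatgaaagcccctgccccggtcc
Madcam1, chr10:79664409-79664558, plus strand: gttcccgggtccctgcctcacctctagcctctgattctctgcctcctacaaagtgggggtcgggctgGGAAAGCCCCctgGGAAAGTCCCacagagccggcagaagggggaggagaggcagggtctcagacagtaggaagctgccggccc

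The lymphocyte markers moved with Ltb, Cxcr5 and Ccr7. The 15 B cell markers summed to 199.8 to 277 CPM in the control libraries, to 30.5 to 34.1 CPM in the bleomycin libraries and to 244.9 to 272.6 CPM in the LNP libraries. The 15 T cell markers summed to 151.2 to 173.8, 55.4 to 59.4 and 136.5 to 164.1 CPM in the same order. In bleomycin against control 14 of the 15 B cell markers and 15 of the 15 T cell markers were called lower, beside 18.5% of all genes. In LNP against bleomycin 14 and 13 were called higher, beside 4.28% of all genes. In both comparisons the groups were without overlap for all 15 of each list, beside 55.5% and 29.9% of all genes. The adipocyte and thymus marker sums were also lowest in bleomycin lung. The 7 adipocyte markers summed to 226.1 to 285.4 CPM for control, 3.85 to 26.3 CPM for bleomycin and 53.8 to 78.7 CPM for LNP. All 7 were called lower after bleomycin, beside 18.5% of all genes. In LNP against bleomycin 3 were called higher, beside 4.28% of all genes, and the lowest log2 fold change of the 7 was 1.48. The 12 thymus markers summed to 16.4 to 19.4, 7.23 to 9.2 and 10.2 to 13.6 CPM in that order. Their sum rests mostly on Cd1d1 and Tbata, with control means of 10.4 and 5.57 CPM. Of the 6 thymus markers that were tested 4 were called lower and 1 higher after bleomycin, beside 18.5% and 15.2% of all genes. Rag2, Ptcra and Psmb11 had at most 7 counts in any library. The part of these markers in the levels of the receptor and lymphotoxin genes was not tested. Set against these sums, Ltb was 0.154 to 0.169 of the T cell sum in the control group, 0.0796 to 0.11 of it with bleomycin and 0.171 to 0.29 of it with the particles. Against the B cell sum the order of bleomycin and control was the opposite, at 0.0928 to 0.125 for control, 0.145 to 0.191 for bleomycin and 0.0951 to 0.153 for LNP. Cxcr5 was 0.0396 to 0.0440 of the B cell sum in the control group, 0.00931 to 0.0315 with bleomycin and 0.0233 to 0.0367 with the particles, so it was lower than its control range in all 6 bleomycin and LNP libraries. Ccr7 was 0.107 to 0.119 of the T cell sum in control, 0.117 to 0.238 of it in bleomycin and 0.141 to 0.175 of it in LNP libraries, so all LNP libraries were above all control libraries. The 12 markers of mature migratory dendritic cells, which also bear CCR7, summed to 192.9 to 211.6 CPM for control, 329.8 to 385.8 CPM for bleomycin and 326.5 to 379.8 CPM for LNP. The list did not move 1 way, since 6 of the 12 were called higher and 2 lower after bleomycin, beside 15.2% and 18.5% of all genes. Fscn1 rose from 25.3 to 91.3 CPM and Cacnb3 from 28.1 to 55.7 CPM, while Cd83 fell from 15.7 to 8.55 CPM and Il12b from 0.553 to 0.0218 CPM.

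**Figure D4:**
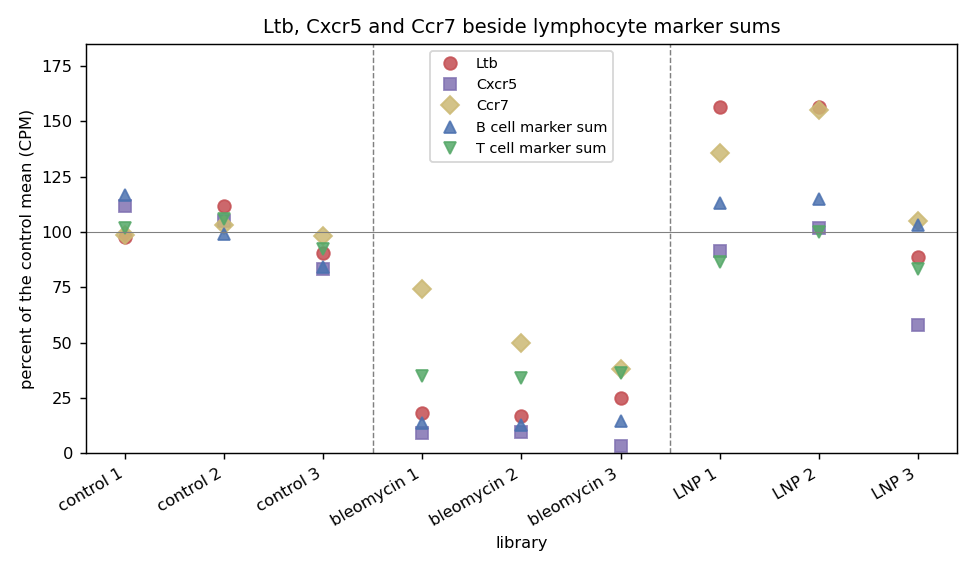
Ltb, Cxcr5 and Ccr7 and the summed B cell and T cell markers in each library, as a percent of their control mean CPM (vertical axis, from 0), with dashed lines between the groups. In bleomycin libraries Ltb is at 16.8% to 24.8%, Cxcr5 at 3.23% to 9.80% and Ccr7 at 38.0% to 74.1%, beside 12.9% to 14.4% for the B cell and 33.8% to 36.2% for the T cell sum.

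Madcam1 encodes MAdCAM-1, the ligand of the integrin alpha4 beta7 on venules that let lymphocytes in. Madcam1 (ENSMUSG00000020310) is on the plus strand of chromosome 10, from 79500393 to 79504371 in the deposited table. It had 0 counts in all 3 control libraries, 5, 11 and 13 counts in bleomycin libraries and 16, 22 and 86 counts in LNP libraries. In CPM the bleomycin libraries held 0.0819, 0.171 and 0.196 and the LNP libraries 0.222, 0.36 and 1.5. The 3 groups did not overlap, and LNP replicate 3 was again the highest. A limit of 3 counts was taken for all of control together, which covers counting error in control only. The observed Madcam1 level was 9.95-fold above that limit in bleomycin lung and 42.8-fold above it in LNP lung. These are not lower bounds, since the spread of the bleomycin and LNP libraries is not in them. Leaving out 1 bleomycin library gave 8.39-fold to 12.1-fold for bleomycin lung. LNP replicate 3 held 86 of the 124 LNP counts, and without it the LNP value was 18.8-fold. LNP lung differed from bleomycin lung by 2.19 ± 0.89 (log2), which was not called, and by 0.95 without LNP replicate 3.

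Glycam1, another sulfated ligand of high endothelial venules, was seen in the same library after its values were known. It had 8 counts in LNP replicate 2, 167 counts in LNP replicate 3 and 0 in the other 7 libraries, and the filter on low counts left it untested. LNP replicate 3 also held the squamous and muscle markers described above. Their part in its Glycam1 and Madcam1 counts was not tested.

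Lyve1 encodes the hyaluronan receptor of lymphatic endothelium, which resident interstitial macrophages also bear. Lyve1 (ENSMUSG00000030787) is on the minus strand of chromosome 7, from 110449814 to 110462446. Lyve1 reached 366.1, 287.9 and 385.3 CPM in control libraries, where the bleomycin libraries had 900.5, 569.3 and 349.5 CPM and the LNP libraries 148.7, 167.3 and 211.0 CPM. The bleomycin libraries were the most scattered and overlapped control in replicate 3, and all LNP libraries were below all others. Lyve1 was 3.45-fold lower in LNP lung than in bleomycin lung (log2 fold change -1.79 ± 0.31) and 1.97-fold lower than in control (-0.98 ± 0.30). The first of these was called, and the call was lost without bleomycin replicate 2 (-1.83), LNP replicate 1 (-1.68) or LNP replicate 2 (-1.75). The second was not called, but was without bleomycin replicate 1 or 3 (-0.98 each). Bleomycin lung differed from control by 0.81 ± 0.30, not called, and by 1.08 without bleomycin replicate 3 and 0.84 without LNP replicate 3, both then called.

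Prox1 encodes the transcription factor that keeps lymphatic endothelial identity. Prox1 (ENSMUSG00000010175) is on the minus strand of chromosome 1, from 189850232 to 189902911. Prox1 was at 3.31, 1.74 and 2.66 CPM in control lung, where the bleomycin libraries had 3.23, 5.54 and 4.50 CPM and the LNP libraries 3.07, 4.96 and 4.49 CPM. All 3 groups overlapped. Bleomycin differed from control by 0.78 ± 0.32 (log2), LNP from bleomycin by -0.08 ± 0.32 and LNP from control by 0.70 ± 0.32, and none of these was called. Lyve1, by contrast, was lowest in LNP lung.

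Levels of different genes can be set side by side only per length, so the order is given in the authors' deposited FPKM, as mean ± SD over 3 libraries. In control lung Lyve1 (109.7 ± 20.5 FPKM) and Ccl21a (98.9 ± 11 FPKM) were highest and did not differ beyond their spread. Ltb (15.9 ± 1.02), Ccr7 (8.48 ± 0.131), Cxcl13 (3.09 ± 0.171), Cxcr5 (2.70 ± 0.378) and Ccl19 (1.43 ± 0.417 FPKM) followed, where Cxcl13 and Cxcr5 were within their spread of each other. Lta (0.364 ± 0.067 FPKM) and Prox1 (0.284 ± 0.095 FPKM) came last among the genes seen there, within their spread. In bleomycin lung Cxcl13 followed Lyve1 (179.9 ± 74.2 FPKM) and Ccl21a (113.2 ± 16.8 FPKM) at 21.5 ± 3.66 FPKM, above Ccr7 (4.33 ± 1.27 FPKM) and Ltb (3.04 ± 0.759 FPKM), which were within their spread. Ccl19 (0.222 ± 0.0777 FPKM), Cxcr5 (0.184 ± 0.0868 FPKM), Lta (0.115 ± 0.111 FPKM) and Madcam1 (0.0867 ± 0.0438 FPKM) closed that order below Prox1 (0.464 ± 0.134 FPKM), each within its spread of the next apart from Prox1. In LNP lung Ccl21a (247.1 ± 15.6 FPKM) stood above Lyve1 (57.3 ± 9.70 FPKM). Ltb (22.2 ± 6.70 FPKM) and Ccr7 (11.6 ± 2.37 FPKM) were again above Cxcr5 (2.35 ± 0.668 FPKM) and Ccl19 (2.04 ± 1.26 FPKM). The Cxcl13 mean of 37.1 ± 50.3 FPKM spans its neighbours, and Lta (0.488 ± 0.143 FPKM), Prox1 (0.473 ± 0.112 FPKM) and Madcam1 (0.453 ± 0.457 FPKM) were within their spread.

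The genes whose log2 CPM ran most like each of the 10 over the 9 libraries were taken from 13993 genes with a mean of at least 1 CPM. The 10 genes themselves, unnamed gene models, pseudogenes, microRNA genes and antigen receptor V, D and J segments were passed over. The libraries share groups, so Pearson's r here is a measure of likeness and largely reflects the group order. Ltb ran closest to Ptprcap (r = 0.999), then to Pla2g4f (0.991) and H2-DMb2 (0.990), and Cxcr5 to Fcrla (0.996), a B cell gene of the marker list. Ccr7 ran closest to Gpr132 (0.982) and Tap1 (0.971), and Ccl19 to Zfp474 (0.983), with Btla (0.966) also among its first 3. Ccl21a ran closest to Slc29a3 (0.980), and Ighg2c (0.963), an antibody heavy chain constant region, was also among its first 3, with means of 0.282 CPM for control, 1.06 CPM for bleomycin and 62.7 CPM for LNP. Cxcl13 ran closest to Crct1 (0.994), a gene of squamous epithelium, and LNP replicate 3 is the highest library of Cxcl13 by far. Madcam1 ran closest to Pycard (0.979), Lyve1 to Lrrc4c (0.972), Lta to Ly6d (0.945) and Prox1 to Snx5 (0.903).

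The other genes of the pathway were taken from 6 lists of 103 genes, of which 99 were tested, chosen for their roles with earlier results of these data known. After bleomycin 29 were called higher and 28 lower than control, beside 15.2% and 18.5% of all genes. Their median log2 fold change was -0.02 beside -0.05 for all genes. In LNP lung against bleomycin lung 12 rose and 3 fell, beside 4.28% and 1.87% of all genes, with a median of 0.22 beside 0.04. Against control 14 rose and 8 fell in LNP lung, beside 4.95% and 3.08% of all genes, with a median of 0.23 beside 0.00. The same shares stand beside the counts of each list below, except for counts without LNP replicate 3. Those stand beside the shares of that fit, which follow here. Without LNP replicate 3, 25 rose and 17 fell against bleomycin, beside 14% and 10.7% of all genes, and 22 rose and 9 fell against control, beside 6.41% and 4.51% of all genes. For LNP against bleomycin, 1 was called without bleomycin replicate 2, beside 0.391% of all genes higher and 0.0837% lower, and 4 without bleomycin replicate 1, beside 0.898% and 0.2%. Without LNP replicate 1 there were 5, beside 1.07% and 0.191%, and without LNP replicate 2 there were 4, beside 1.42% and 0.246%. Against control, 12 were called without control replicate 1, beside 2.28% and 1.05%, 10 without control replicate 3, beside 2.42% and 1.22%, and 13 without LNP replicate 2, beside 3.64% and 1.38%.

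**Figure D5:**
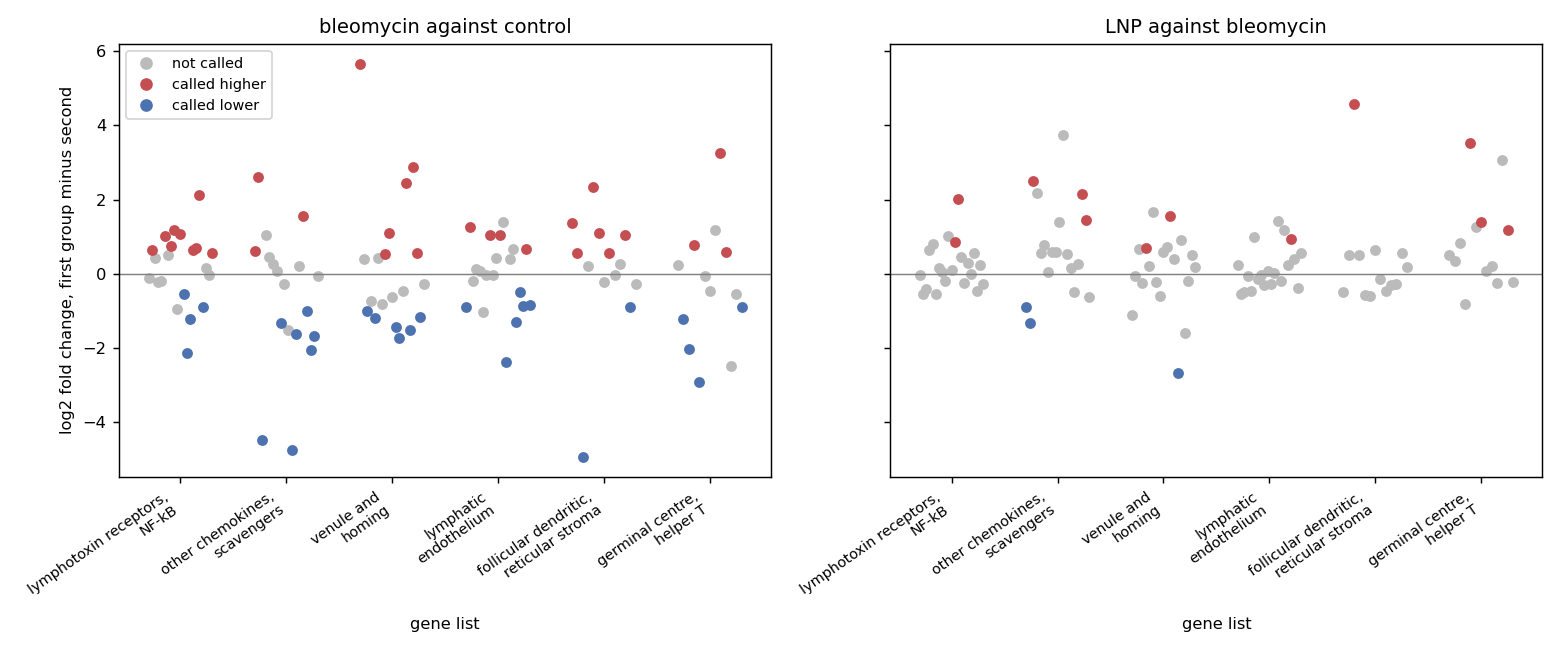
Log2 fold changes (vertical axis, first group minus second) of the tested genes of the 6 pathway lists, each point 1 gene, with bleomycin against control on the left and LNP against bleomycin on the right. Red and blue points passed the test upwards and downwards, 29 and 28 genes on the left and 12 and 3 on the right, and a gene on several lists is drawn in each.

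Of the 21 lymphotoxin receptor and noncanonical NF-kB genes, 9 were called higher and 4 lower after bleomycin, beside 15.2% and 18.5% of all genes. Ltbr, the receptor for the lymphotoxin heterotrimer, rose 2.02-fold, from 116.3 to 235.3 CPM (1.02 ± 0.18 on the log2 scale, adjusted p = 0.0026), while its ligand gene Ltb was lower. Relb, the transcription factor at the end of that pathway, rose by 1.19 ± 0.18 (adjusted p = 0.0013), and Tnfrsf11a, which encodes the receptor RANK, by 1.08 ± 0.16 (adjusted p = 0.0014). Tnfrsf13c, the BAFF receptor of B cells, fell by 2.12 on the log2 scale (adjusted p = 0.0017), and Tnfsf13b, which encodes BAFF, and Tnfrsf14, which encodes the LIGHT receptor HVEM, fell by 0.90 and 1.22 (adjusted p = 0.0075 and 0.0088). In LNP lung against bleomycin lung 2 of the 21 rose and edgeR called 0 lower (2 at an unadjusted p under 0.05, 1 by DESeq2). Both were B cell receptors of this family, Tnfrsf13c at 2.02 ± 0.34 (adjusted p = 0.014) and Tnfrsf13b at 0.86 ± 0.18 (adjusted p = 0.024). Without LNP replicate 3, 3 rose and 2 fell. Against control, Relb (1.00 ± 0.18, adjusted p = 0.0095), Nfkb2, which encodes its partner p100 (0.80 ± 0.17, adjusted p = 0.022), Tnfrsf11a (1.17 ± 0.17, adjusted p = 0.0036) and Tnfrsf1b (0.98 ± 0.14, adjusted p = 0.0042) rose, and edgeR called 0 lower (1 at an unadjusted p under 0.05, 0 by DESeq2).

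Of the 18 other homeostatic chemokine, receptor and scavenger genes, 3 were called higher and 7 lower after bleomycin, beside 15.2% and 18.5% of all genes. Ackr4, which encodes the scavenger receptor that takes up CCL19 and CCL21, fell 22.3-fold, from 11.9 to 0.533 CPM (-4.48 ± 0.52 on the log2 scale, adjusted p = 0.0004). Ackr3, the scavenger of CXCL12, rose 6.15-fold (2.62 ± 0.32, adjusted p = 0.00052), and Cxcl16 rose 2.95-fold (1.56 ± 0.17, adjusted p = 0.00028). Cxcr4 and Gpr183, which guide lymphocytes by CXCL12 and oxysterols, fell by 0.99 and 1.66 (adjusted p = 0.0016 and 0.0041), and Ackr2 rose by 0.62 ± 0.17 (adjusted p = 0.023). In LNP against bleomycin lung 3 rose and 2 fell (5 and 4 without LNP replicate 3). Ackr4 rose 5.63-fold, to 3.01 CPM (2.49 ± 0.49, adjusted p = 0.021), still 3.96-fold below control (adjusted p = 0.029). Cxcr6, the CXCL16 receptor, and Gpr183 rose by 2.15 ± 0.51 and 1.44 ± 0.32 (adjusted p = 0.041 and 0.031), and Ackr2 and Ackr3 fell by 0.88 and 1.33 (adjusted p = 0.022 and 0.037). Against control 4 rose and 3 fell, among them Cxcl16 (1.07 ± 0.17, adjusted p = 0.0052) and, downwards, S1pr1 (-0.71 ± 0.17, adjusted p = 0.033), the receptor by which lymphocytes leave tissue.

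Of the 21 venule and homing genes, 19 were tested. After bleomycin 6 were called higher and 6 lower, beside 15.2% and 18.5% of all genes. Ackr1, a chemokine carrier of venules, rose from 0.584 to 29.6 CPM (5.66 ± 0.54 on the log2 scale, adjusted p = 0.00018), and Selp, which encodes P-selectin, rose 7.43-fold (2.89 ± 0.49, adjusted p = 0.0022), or 2.24 (log2) without bleomycin replicate 1. Itgb7, which encodes the beta7 chain of the MAdCAM-1 receptor, fell 3.32-fold, from 42.2 to 12.7 CPM (-1.73 ± 0.22, adjusted p = 0.00057), in the lungs where Madcam1 first had counts. Enpp2, which encodes autotaxin, and Itgal fell by 1.19 and 1.44 (adjusted p = 0.00033 and 0.0034), and Icam1 rose by 1.10 ± 0.20 (adjusted p = 0.0028). In LNP lung Itgb7 rose again, to 37.8 CPM (1.57 ± 0.22 against bleomycin, adjusted p = 0.0076), as did Enpp2 (0.69 ± 0.13, adjusted p = 0.02), and Sele, which encodes E-selectin, fell (-2.66 ± 0.65, adjusted p = 0.043), by 2.02 without bleomycin replicate 1 and no longer called. In that comparison 2 of the list rose and 1 fell, and 6 and 3 did without LNP replicate 3. Ackr1 remained 23.5-fold above control (4.56 ± 0.52, adjusted p = 0.0015, 3.95 without LNP replicate 3) and Enpp2 below it (-0.50 ± 0.13, adjusted p = 0.048).

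Of the 20 lymphatic endothelium genes other than Lyve1 and Prox1, 4 were called higher and 6 lower after bleomycin, beside 15.2% and 18.5% of all genes. Pdpn, Ccbe1 and Vegfc, which encode podoplanin and the growth factor VEGF-C with its activating partner, rose by 1.04 ± 0.22, 1.26 ± 0.27 and 0.68 ± 0.15 (adjusted p = 0.0065, 0.007 and 0.0085). Tek, Angpt2 and Sox18, which vascular endothelium in general also expresses, fell by 1.29, 0.89 and 2.36 (adjusted p = 0.00097, 0.0033 and 0.0052). Pdpn is not particular to lymphatic vessels either, being also on the reticular stroma list. The summed level of the 20 was 2478 to 2884 CPM in control, 1922 to 2198 CPM in bleomycin and 1565 to 2325 CPM in LNP libraries, lowest in LNP replicate 3. That sum rests mostly on Cldn5, Tie1, Tek and Sox18, with control means of 751, 480.7, 424 and 277.6 CPM. After bleomycin 7 genes of the list lay above control without overlap and 7 below, beside 55.5% of all genes. Those above included Mmrn1 (18.8 to 39.1 CPM) and Reln (9.91 to 26.3 CPM). In LNP against bleomycin lung Thy1 rose (0.95 ± 0.14, adjusted p = 0.0084), a gene that T cells also express, and edgeR called 0 lower (2 at an unadjusted p under 0.05, 0 by DESeq2), while Lyve1 was lower. Against control Tek and Angpt2 fell (-1.06 and -0.65, adjusted p = 0.008 and 0.039), and edgeR called 0 higher (7 at an unadjusted p under 0.05, 6 by DESeq2). Without LNP replicate 3, 5 rose and 2 fell against bleomycin, and 3 rose and 2 fell against control.

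Of the 13 follicular dendritic and reticular stroma genes, 6 were called higher and 2 lower after bleomycin, beside 15.2% and 18.5% of all genes. Cr2, the complement receptor of follicular dendritic cells and B cells, fell from 2.75 to 0.0874 CPM (-4.93 ± 0.81 on the log2 scale, adjusted p = 0.0018) and rose in LNP lung to 2.15 CPM (4.58 ± 0.80 against bleomycin, adjusted p = 0.015). No other gene of the 13 was called there with all libraries, but without LNP replicate 3 edgeR called 2 higher and 4 lower, the latter including Fcgr2b (-0.95), Pdgfra (-0.77) and Des (-0.77). Cr2 is also on the B cell marker list. It kept both calls when any 1 of the 9 libraries was left out, at 4.02 to 6.03 for LNP against bleomycin and -6.38 to -4.37 for bleomycin against control, with the widest moves without bleomycin replicate 2. Bst1, a marker of reticular stroma and myeloid cells, and Fcgr2b, an inhibitory Fc receptor, rose after bleomycin by 1.38 ± 0.15 and 2.33 ± 0.28 (adjusted p = 0.00031 and 0.00044). Both stayed above control in LNP lung (0.89 ± 0.15 and 1.77 ± 0.27, adjusted p = 0.0073 and 0.0052), as did Clu (1.05 ± 0.17, adjusted p = 0.0061). Against control 3 rose and edgeR called 0 lower (0 at an unadjusted p under 0.05, 0 by DESeq2), and without LNP replicate 3, 4 rose and 1 fell.

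Of the 15 germinal centre and follicular helper T cell genes, 13 were tested. After bleomycin 3 were called higher and 4 lower, beside 15.2% and 18.5% of all genes. Pdcd1, which encodes PD-1, rose from 0.338 to 3.28 CPM (3.26 ± 0.62 on the log2 scale, adjusted p = 0.0038). Bcl6, the master regulator of both cell types, fell 2.32-fold (-1.22 ± 0.18, adjusted p = 0.0013), and Gcsam and Tox2 fell by 2.91 and 0.90 (adjusted p = 0.0084 and 0.0071). Fas and S1pr2 rose by 0.79 ± 0.22 and 0.60 ± 0.15 (adjusted p = 0.022 and 0.014). In LNP against bleomycin lung Gcsam (3.52 ± 0.67, adjusted p = 0.02), Il21r (1.40 ± 0.25, adjusted p = 0.016) and Slamf6 (1.18 ± 0.24, adjusted p = 0.025) rose, and edgeR called 0 lower (1 at an unadjusted p under 0.05, 1 by DESeq2). Without LNP replicate 3, 5 rose and 2 fell. Against control Pdcd1 (3.49 ± 0.63, adjusted p = 0.0093) and Il21r (0.96 ± 0.25, adjusted p = 0.044) rose and Bcl6 and Tox2 fell (-0.87 and -1.12, adjusted p = 0.018 and 0.0085). Without control replicate 2 the Pdcd1 differences were 4.02 for bleomycin and 4.24 for LNP against control.

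Of the 33 other pathway genes named for bleomycin against control, 30 were called in all 9 fits that left out 1 library. Of the 15 named for LNP against bleomycin 1 was, namely Cr2, and of the 21 named for LNP against control 10 were. Without bleomycin replicate 2 all 14 exceptions of LNP against bleomycin lost their call, with log2 fold changes that moved by -0.13 to 0.32. Without control replicate 3 all 11 exceptions of LNP against control lost theirs, with moves of -0.17 to 0. Without control replicate 1 the 3 exceptions of bleomycin against control (Ackr2, S1pr2 and Fas) did so, with moves of -0.07 to -0.04.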

How the data were processed

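Strand-marked paired-end libraries were prepared from poly(A) RNA, per the labels' protocols. The tools fastp, StringTie and edgeR are named by the submitters' processing notes. Aligner, genome build and strand setting of the counting were not given in the sources used here. Near-identical, overlapping and antisense genes therefore have uncertain values. Per the file headers, the authors deposited whole-number counts for genes and transcripts, and FPKM values for genes. FPKM served for the order of levels and as an alternative unit.

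The members and gene lists were chosen with earlier results of these data known. Gene counts of all 9 libraries entered 1 fit in edgeR 4.0.16 (R 4.3.3) with TMM scaling and filterByExpr, which left out 11877 genes. Benjamini-Hochberg adjustment ran over the 20794 genes tested, and adjusted p-values come from this fit. CPM use TMM-scaled library sizes. Values after ± are SD over n = 3 for levels and SE for log2 fold changes. Per list and comparison, up to 3 called genes per direction with the smallest p were named, and all where 5 or fewer passed. As like genes, the 3 with the highest r (prior count 2) were taken, of which 1 or 2 are printed. The least different libraries of 1 group still differed beyond sampling noise, at a chi-square of 30.2 per degree of freedom. Alternatives were DESeq2 1.42.0, limma 3.58.1 on log2(FPKM + 1) and log2(FPKM + 0.1), other scaling, filters and sample sets, a replicate block and leaving out each library. The scripts were tested on simulated counts. Figures used matplotlib 3.10.9.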

Additional observations from a re-analysis of the deposited data

How the results depend on the processing

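Relative log expression scaling, no filter on low counts and the replicate block left the counts of called members within 1.5 times of the values in the text in all 3 comparisons. For LNP against bleomycin, a fit of only the 2 groups compared called 3 members and 5 other pathway genes, DESeq2 29 other pathway genes, and limma on log2(FPKM + 1) without a filter 8. For LNP against control, each of the 3 limma fits on log2 FPKM called 1 member, and DESeq2 called 35 other pathway genes. Over all genes DESeq2 called 1930 higher and 1081 lower for LNP against bleomycin, where the fit in the text called 891 and 389. For LNP against control it called 1816 and 1122, where the fit in the text called 1030 and 641. Calls over all genes with only the groups compared, in limma without a filter and with the replicate block are not given here. Leaving out 1 library gave 4 to 7 members for bleomycin against control, 2 to 7 for LNP against bleomycin and 2 to 4 for LNP against control, and 42 to 66, 1 to 42 and 10 to 31 other pathway genes. Over the same fits the share of all genes called higher was 9.07% to 20.5%, 0.391% to 14% and 2.28% to 6.41%, and lower 11.2% to 22.1%, 0.0837% to 10.7% and 1.05% to 4.51%. The replicate block called 7 other pathway genes for LNP against bleomycin in place of 15. Whether replicate numbers pair the samples is not in the labels. The deviations of same-numbered libraries correlated at -0.0176 to 0.04, which shows no strong shared effect but cannot settle pairing.

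The sign turned for Cxcl13 in LNP against bleomycin, at -0.11 with the replicate block, -0.16 and -0.20 in limma on log2(FPKM + 1) and log2(FPKM + 0.1), -0.16 in limma without a filter and -1.54 without LNP replicate 3 (-1.54 to 1.16 over the fits without 1 library). It turned for Prox1 in the same comparison, at 0.01 in limma without a filter, 0.11 without bleomycin replicate 2 and 0.10 without LNP replicate 1 (-0.27 to 0.11), and for Ccl19 in LNP against control, at -0.14 without LNP replicate 3 (-0.14 to 0.72). The cause was not tested. Of the other member values under an alternative, 432 kept direction and side of the threshold, 35 lost a call and 12 gained one. Counts of Lta, Ccl19 and Madcam1 were low. The largest SE outside Madcam1 was that of Cxcl13 for LNP against control (0.88).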
